A study of Homo sapiens with 2 samples.

Results

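Cancer-testis antigens are proteins that healthy adults make mainly in the germ cells of the testis and that tumors of many kinds, melanoma and myeloma among them, make again. Most of their genes lie on the X chromosome as families of near-identical copies. The members described here were all rows of the deposited expression table whose symbol begins with MAGE, CTAG1, CTAG2, GAGE, XAGE, PAGE, SSX, SPANX, BAGE, CT45, CT47 or CSAG, leaving out SSX2IP, which gave 91 genes of 18930 in 14 families. The families were selected on the difference between the 2 libraries of this study, in which some of their genes stood among those with the largest differences. All differences between the libraries are therefore a description, without a test. RefSeq places 87 of the 91 members on the X chromosome.

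RNA was sequenced from 1 library with the label DR and 1 with the label WT, and A375, a melanoma line from human skin, is given as the cell line of both. In the study, DR stands for cells made resistant to dacarbazine (DTIC), a drug that alkylates DNA, by growth in rising concentrations, and WT for the parental wild-type cells, but the labels of both libraries state 105 days of the drug, the WT one included. Columns of counts were matched to samples through the sample descriptions. These differ by 1 punctuation mark and do not say which is wild type, so every direction below rests on that match. The estimated counts summed to 54878355 reads in the DR-labelled library and 35294670 in the WT-labelled library, so that 1 read was worth 0.018 and 0.0287 normalized CPM (reads scaled to a common library size, with TMM factors).

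The cell type on the labels was checked against its defining genes before the members were described. Of the 17 melanocytic genes, 15 had counts, with a median of 0.900 CPM in the DR-labelled library and 0.488 CPM in the WT-labelled library. These medians include genes with fewer than 10 reads. All genes with at least 10 reads had medians of 19.97 and 19.62 CPM. Of the 11 melanocytic genes with at least 10 reads, 1 reached the median of all genes in each library. It was MITF, the master regulator of melanocytes and the highest of the list, with 34.6 and 34.7 CPM. KIT, a growth factor receptor (139 and 3 reads), and CDH19, a cadherin (6.55 and 2.15 CPM), were higher by at least 1 on the log2 scale in the DR-labelled library, and 0 genes of the list were lower by as much. SOX10, the lineage factor of melanocytes and neural crest, had 3 reads and 0 reads, and TYRP1, a melanin enzyme, 0 and 17 reads. The 20 plasma cell genes had medians of 235 and 201 CPM. Of these, 6 were higher by at least 1 on the log2 scale in the DR-labelled library and 0 were lower. The 6 were CD74 (1926 and 444 CPM), MZB1 (451 and 224 CPM), DERL3 (138 and 65.03 CPM), TNFRSF13B (98.9 and 33.02 CPM), CD79A (2.47 and 0.918 CPM) and FCRL5 (1.46 and 0.402 CPM). IGLL5, a row that may hold reads of immunoglobulin light chains, was the most abundant at 7787 and 4796 CPM, and JCHAIN, which joins immunoglobulin chains of antibodies, stood at 2012 and 2917 CPM. The libraries are therefore named by their labels only, and the part of these levels in the differences of the members was not tested. In bulk RNA, fewer cells that express a gene and less RNA of it per cell cannot be told apart.

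MAGE proteins share a homology domain with which they bind ubiquitin ligases. Type I MAGE genes (MAGEA, MAGEB and MAGEC) are germline genes of the X chromosome, while type II MAGE genes (such as MAGED1 and MAGEF1) are active in many tissues. CTAG1A and CTAG1B encode the same protein, NY-ESO-1, and CTAG2 encodes its relative LAGE-1. Both proteins have been used as targets of engineered T cells. The GAGE, PAGE and XAGE genes encode small acidic proteins, and SSX genes encode repressors that are fusion partners in synovial sarcoma. In normal tissues and in many tumors these genes are held silent by methylation of CG dinucleotides in their promoters. Methylation was not measured in these libraries.

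The bases before the start site are shown for members at the ends and near the middle of the observed range, since near-identical starts can be compared directly with the levels. The RefSeq (GRCh38.p14) start windows used here covered 61 of the 91 members, and the CTAG genes were not among them. Each sequence below covers the 250 bases upstream of the start, 5′ to 3′ on the strand of the gene, with CG dinucleotides in capitals. The first 4 belong to genes far lower in the DR-labelled library, the next 2 to genes at a similar level in both libraries, and the last to a gene higher in the DR-labelled library.
MAGEC1 (chrX:141903644-141903893, plus strand): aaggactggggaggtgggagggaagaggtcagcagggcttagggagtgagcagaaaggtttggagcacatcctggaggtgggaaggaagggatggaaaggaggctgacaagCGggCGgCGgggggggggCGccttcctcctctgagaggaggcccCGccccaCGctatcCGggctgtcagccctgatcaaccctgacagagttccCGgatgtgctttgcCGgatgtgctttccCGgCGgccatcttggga
MAGEA4 (chrX:151912224-151912473, plus strand): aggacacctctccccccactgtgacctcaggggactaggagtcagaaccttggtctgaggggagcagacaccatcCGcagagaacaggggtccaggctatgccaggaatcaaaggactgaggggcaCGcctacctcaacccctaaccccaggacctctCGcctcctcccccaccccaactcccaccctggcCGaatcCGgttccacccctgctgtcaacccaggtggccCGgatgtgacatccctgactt
MAGEA3 (chrX:152698544-152698793, plus strand): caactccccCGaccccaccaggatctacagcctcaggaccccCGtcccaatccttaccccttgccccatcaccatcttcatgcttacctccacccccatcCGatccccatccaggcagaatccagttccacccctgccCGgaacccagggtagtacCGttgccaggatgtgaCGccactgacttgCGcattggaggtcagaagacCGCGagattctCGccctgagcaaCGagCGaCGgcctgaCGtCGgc
PAGE5 (chrX:55220096-55220345, plus strand): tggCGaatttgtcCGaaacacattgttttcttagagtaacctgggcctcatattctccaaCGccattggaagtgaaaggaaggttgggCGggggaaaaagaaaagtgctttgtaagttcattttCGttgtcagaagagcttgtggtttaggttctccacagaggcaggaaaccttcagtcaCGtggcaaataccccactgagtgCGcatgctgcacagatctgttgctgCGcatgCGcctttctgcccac
MAGEA9 (chrX:149781680-149781929, plus strand): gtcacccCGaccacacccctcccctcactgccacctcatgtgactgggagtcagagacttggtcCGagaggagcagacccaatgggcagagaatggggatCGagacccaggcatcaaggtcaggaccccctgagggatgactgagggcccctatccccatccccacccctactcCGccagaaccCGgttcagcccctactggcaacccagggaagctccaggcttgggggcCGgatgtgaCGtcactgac
GAGE12G (chrX:49570147-49570396, plus strand): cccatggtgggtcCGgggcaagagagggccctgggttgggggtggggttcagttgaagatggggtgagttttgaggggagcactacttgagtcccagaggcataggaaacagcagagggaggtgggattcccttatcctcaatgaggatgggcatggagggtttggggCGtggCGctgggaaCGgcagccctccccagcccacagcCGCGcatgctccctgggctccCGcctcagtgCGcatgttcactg
MAGEE1 (chrX:76427460-76427709, plus strand): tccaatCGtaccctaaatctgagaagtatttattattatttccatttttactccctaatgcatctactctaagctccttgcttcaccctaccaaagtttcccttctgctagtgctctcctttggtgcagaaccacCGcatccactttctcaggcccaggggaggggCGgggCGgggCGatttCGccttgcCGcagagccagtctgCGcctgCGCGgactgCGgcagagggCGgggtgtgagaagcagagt

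The window of MAGEA6 (chrX:152769690-152769939, minus strand) was identical to that of MAGEA3 over all 250 bases, and the window of MAGEA9B to that of MAGEA9. For MAGEA4, RefSeq lists 5 start windows, and the one farthest upstream is shown. The CG dinucleotides numbered 11 in MAGEC1, 6 in MAGEA4, 15 in MAGEA3, 9 in PAGE5, 7 in MAGEA9, 8 in GAGE12G and 12 in MAGEE1, against a median of 11 over all 35116 windows of the table. The sequence CCGGA, the core of the sites that ETS transcription factors bind, was counted on both strands. It occurred 3 times in MAGEC1, 2 times in MAGEA4, 1 time each in MAGEA3, MAGEA9 and GAGE12G, and 0 times in PAGE5 and MAGEE1. Of all windows, 35.8% held it at least 1 time and 5.8% at least 3 times. A match is a description of the letters only.

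Of the 91 members, 22 had no count in the table, among them all 13 CT47 genes. Of the 69 with counts, 23 had fewer than 10 reads over both libraries, and SSX2B, CT45A5 and CT45A7 had 0 reads in both. Among the other 46, 20 were called lower in the DR-labelled library and 3 were called higher, where called means a log2 difference of at least 1 in size on the scale of log2 (CPM + 0.5). Over all 16210 genes with at least 10 reads, 4.16% were called lower and 7.48% higher by the same rule, which is given beside these counts only, since the families were picked from this contrast. Several of the 46 are near-identical copies. When copies were summed, 12 units of 34 were called lower and 4 higher. The median log2 difference of the 46 members was -0.61, against 0.01 for all 16210 genes. At the lower end of the distribution, 31 of the 16210 genes were lower by at least 4 on the log2 scale, and 8 of the 31 were members. This count restates in part how the families were picked, and it includes rows that share sequence, MAGEA3 with MAGEA6 and the CTAG rows.

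**Figure D1:**
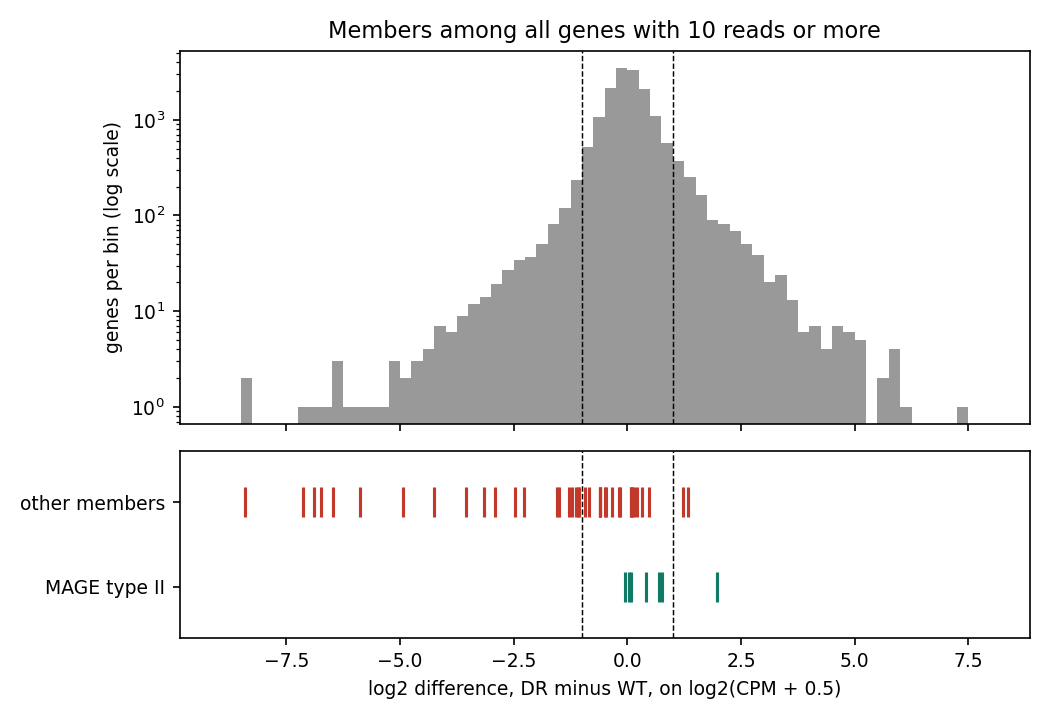
The upper panel counts all 16210 genes by their log2 difference, DR minus WT, in bins of equal width with a log vertical axis, and the lower panel marks each of the 46 members with at least 10 reads. Dashed lines stand at -1 and 1. The members outside MAGE type II reach down to -8.41 (MAGEC1), while the 7 MAGE type II members lie between -0.05 and 1.98.

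The reads of all members together amounted to 300.05 CPM (16671 reads) in the DR-labelled library and 1165 CPM (40613 reads) in the WT-labelled library. This sum was 3.88-fold higher in the WT-labelled library (95% exact interval of read counting, 3.81 to 3.95). Without the type II MAGE genes the sums were 159.5 and 1039 CPM, a 6.51-fold difference (6.36 to 6.67). At least 10 CPM was reached by 19 members in the WT-labelled library and by 8 in the DR-labelled library, all 8 of them among the 19. The families were picked on this contrast, so these counts are a description only. The genes that led the families also differed. MAGEC1, MAGEA3, CTAG2, MAGEA6 and MAGEA1 held 51.3% of the member reads in the WT-labelled library, whereas MAGED2, MAGEA1, MAGED1, MAGEF1 and GAGE12G held 62.8% in the DR-labelled library. Per kilobase of gene length, the highest members were CTAG2, CTAG1B and MAGEA3 in the WT-labelled library (99.8, 92.6 and 62.4 CPM per kb) and GAGE12G, MAGEA1 and MAGED2 in the DR-labelled library (44.9, 26.1 and 24.3 CPM per kb).

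**Figure D2:**
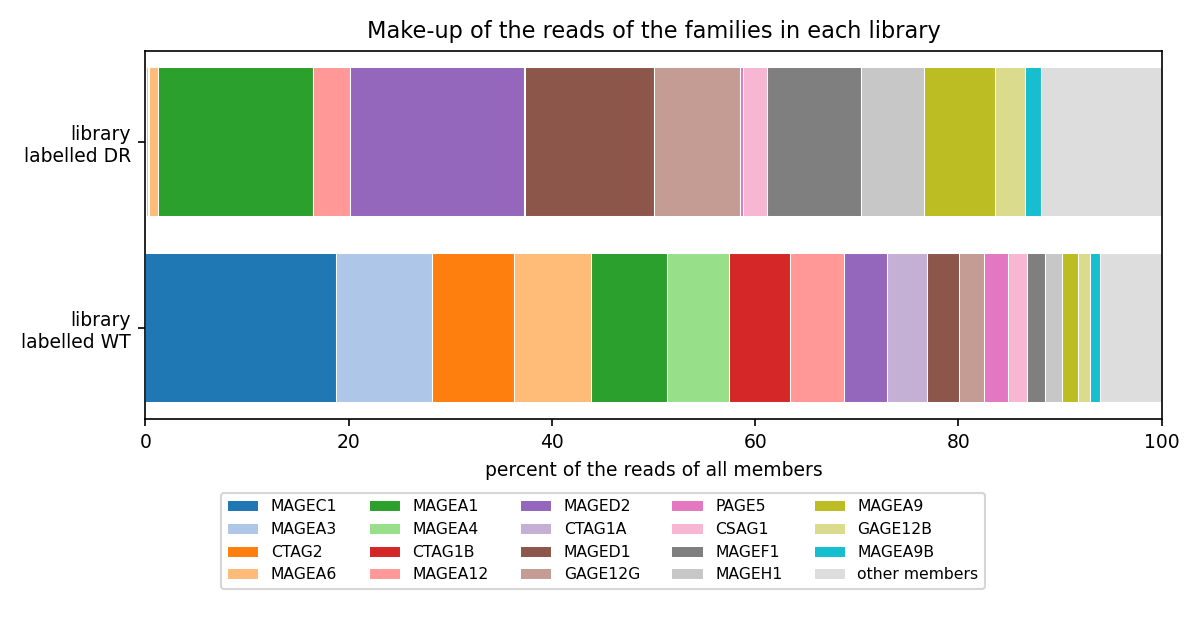
Each bar divides the reads of all members in 1 library, in percent, among the 19 members with at least 10 CPM in either library and the rest. MAGEC1 takes 18.8% of the bar of the WT-labelled library and 0.048% of that of the DR-labelled library, where MAGED2 takes 17.1%.

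MAGEC1, also known as CT7, had the lowest log2 difference of all members. It had 8 reads in the DR-labelled library (0.144 CPM) and 7620 reads in the WT-labelled library (219 CPM), a 1518-fold difference (770 to 3518) and -8.41 on the log2 scale. MAGEC2, which binds the ligase TRIM28, had 134 and 198 reads (2.41 and 5.68 CPM), 2.35-fold lower in the DR-labelled library (1.88 to 2.95). MAGEC3 went the other way, with 50 reads in the DR-labelled library and 2 in the WT-labelled library (0.900 and 0.0574 CPM; log2 difference 1.33). These neighbouring genes share at most 2.6% of their 31-base stretches with any other member, far less than the copies described below. The sum of the family, 3.46 and 224 CPM, rested on MAGEC1. Without it 184 and 200 reads were left, with a log2 difference of -0.71 in place of -5.83.

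The 3 CTAG genes were all called lower in the DR-labelled library. CTAG1B had 0 reads in the DR-labelled library and 2427 in the WT-labelled library (69.6 CPM), at least 1289-fold lower when 3 reads are taken as the floor of a library. CTAG1A had 16 and 1602 reads (0.288 and 46.0 CPM), 160-fold lower (97.96 to 279.9). CTAG2 had 16 and 3264 reads (0.288 and 93.6 CPM), 325-fold lower (200 to 570). CTAG1A shares 92.5% of its 31-base stretches with other members, mostly CTAG1B, and 50.9% of those of CTAG2 also occur in CTAG1A, so the division of reads among the 3 rows is uncertain. Their sum does not depend on that division and was 32 reads (0.576 CPM) against 7293 reads (209 CPM), a 363-fold difference (257 to 531) and the largest of any family.

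Within MAGEA, the genes differed between the libraries by very unequal amounts. MAGEA4 had 9 and 2459 reads (0.162 and 70.5 CPM in the DR-labelled and WT-labelled libraries), 435-fold lower in the DR-labelled library (229 to 953). MAGEA3 had 41 and 3835 reads (0.738 and 110 CPM), 149-fold lower (110 to 208). MAGEA6 had 134 and 3083 reads (2.41 and 88.4 CPM), 36.7-fold lower (30.8 to 43.9). MAGEA3 shares 67.9% of its 31-base stretches with MAGEA6, and both bind TRIM28. Summed, they had 175 and 6918 reads, 63.0-fold lower in the DR-labelled library (54.2 to 73.6). MAGEA3 was the higher of the pair in the WT-labelled library and MAGEA6 in the DR-labelled library. How the counting divided reads between them is not given in the sources used here.

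MAGEA12 stood between these genes and those that differed little. It had 603 and 2189 reads (10.9 and 62.8 CPM), 5.79-fold lower in the DR-labelled library (5.28 to 6.34). MAGEA2 and MAGEA2B, which share 97.8% of the 31-base stretches of MAGEA2, had 0 and 138 reads and 16 and 305 reads, and their sum was 44.1-fold lower (26.9 to 77.9). MAGEA10 had 79 and 122 reads, with a log2 difference of -1.06, just inside the threshold. MAGEA1, the first human tumor antigen of this kind to be cloned, had 2547 and 3051 reads (45.8 and 87.5 CPM) and a log2 difference of -0.93, just outside it. MAGEA1 made up 52.3% of the MAGEA reads in the DR-labelled library and 18.8% in the WT-labelled library.

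MAGEA9 was the member of the family that differed least among those above 10 CPM. It had 1169 and 657 reads (21.04 and 18.85 CPM), 1.12-fold higher in the DR-labelled library (1.01 to 1.23). MAGEA9B, a copy that shares 88.5% of its 31-base stretches with other members, had 269 and 389 reads (4.84 and 11.2 CPM) and was called lower, with a log2 difference of -1.13. Summed, the pair had 25.9 and 30.0 CPM, a log2 difference of -0.21 that was not called. The MAGEA family as a whole had 87.7 and 466 CPM, 5.31-fold lower in the DR-labelled library (5.14 to 5.48). Of its 10 genes with at least 10 reads, 8 were called lower and 0 higher. MAGEA5, MAGEA8 and MAGEA11 had at most 3 reads in either library.

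The CSAG genes lie beside MAGEA genes. The nearest RefSeq start sites of MAGEA12 and CSAG1 are 36 bases apart on opposite strands, and those of MAGEA2 and CSAG3 37 bases. CSAG1 had 393 and 737 reads (7.07 and 21.1 CPM), 2.99-fold lower in the DR-labelled library (2.64 to 3.39), against 5.79-fold for MAGEA12. CSAG2 and CSAG3, whose sequences are shared to over 95% (CSAG2 with CSAG3, 95.8%), summed to 457 and 402 reads (8.23 and 11.5 CPM), 1.402-fold lower (1.22 to 1.61), against 44.1-fold for the sum of MAGEA2 and MAGEA2B. MAGEA12 and CSAG1, which start head to head, thus differed between the libraries by unequal amounts, with counting intervals that did not overlap. The intervals of the sums did not overlap either, but these sums also hold MAGEA2B and CSAG2, whose start distances were not measured.

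**Figure D3:**
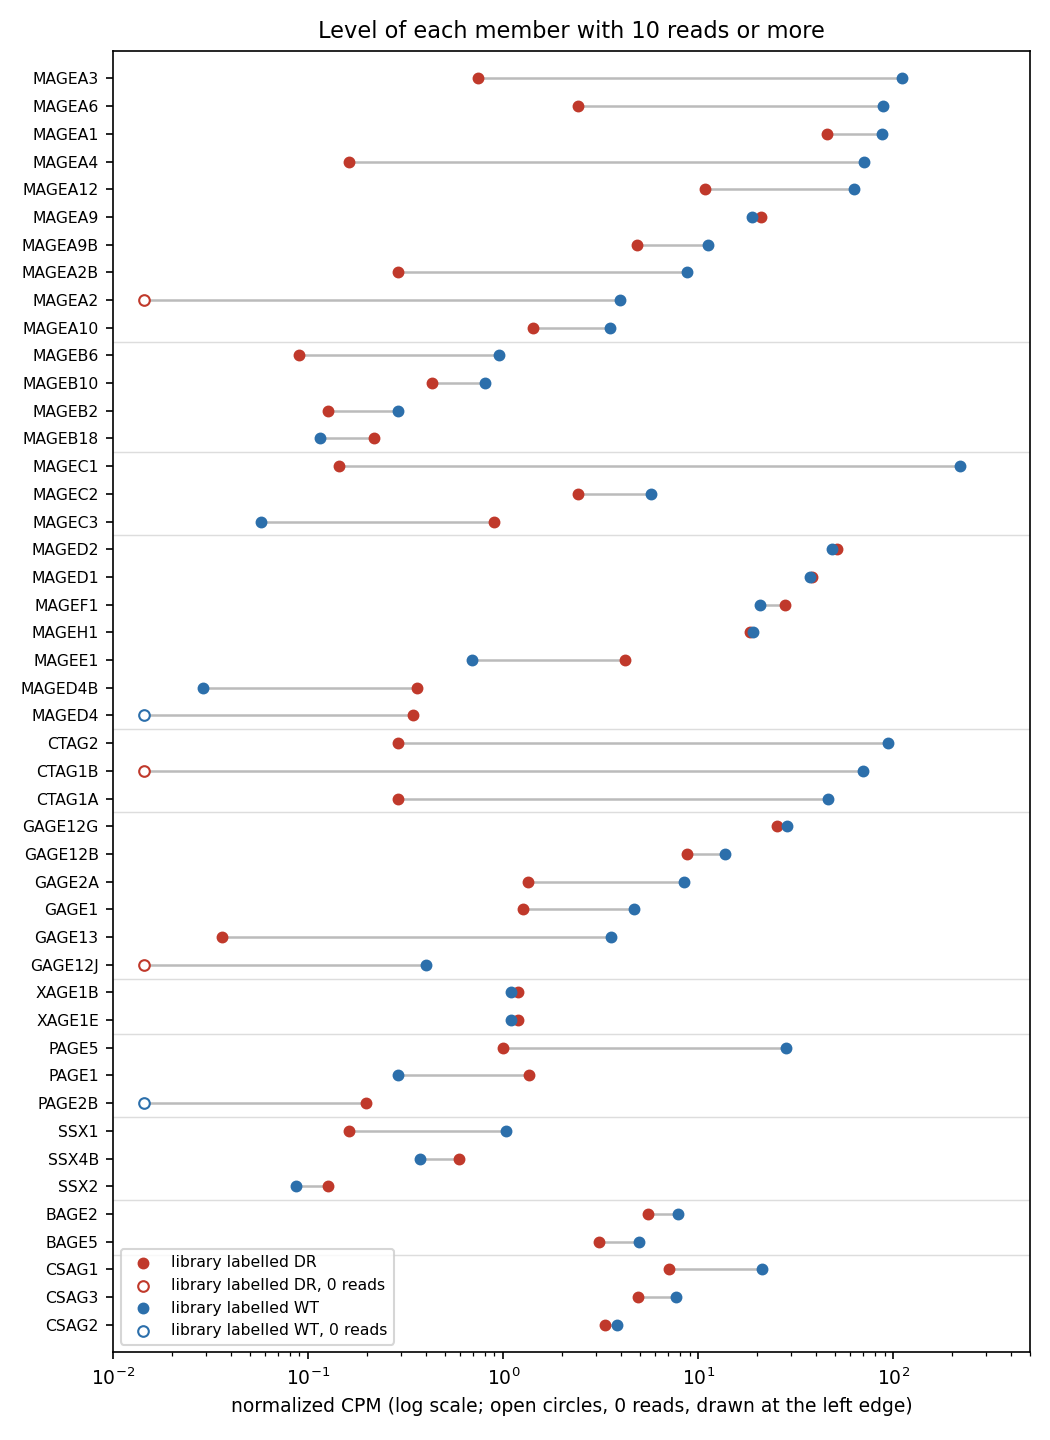
Normalized CPM on a log axis of the 46 members with at least 10 reads, with a red point for the DR-labelled library and a blue one for the WT-labelled library. Grey rules separate the families, and open circles at the left edge stand for 0 reads. The 3 CTAG genes, MAGEC1, MAGEA4 and MAGEA3 span more than 100-fold, while the points of MAGED1, MAGED2, MAGEH1 and MAGEA9 nearly coincide.

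The MAGEB genes were low in both libraries, with 0.972 and 2.30 CPM in all. MAGEB6 had 5 and 33 reads and was called lower (log2 difference -1.29). MAGEB2, a testis-specific member that limits stress granules, had 7 and 10 reads, a difference whose counting interval included 0 on the log2 scale. MAGEB10 had 24 and 28 reads and MAGEB18 12 and 4 reads, and neither was called.

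The type II MAGE genes as a group had 140.5 CPM in the DR-labelled library and 126.1 CPM in the WT-labelled library, 1.11-fold higher in the former (1.07 to 1.16). MAGED2, which takes part in salt uptake by the kidney, was the most abundant, with 2852 and 1686 reads (51.3 and 48.4 CPM; log2 difference 0.09). MAGED1, a partner of the p75 neurotrophin receptor, had 2116 and 1296 reads (38.1 and 37.2 CPM; 0.03). MAGEF1 had 1546 and 723 reads (27.8 and 20.7 CPM; 0.42), and MAGEH1 1023 and 666 reads (18.4 and 19.1 CPM; -0.05). The intervals of MAGED1, MAGED2 and MAGEH1 included no difference and reached at most 1.15-fold in either direction. MAGEE1 was an exception in this group, with 233 and 24 reads (4.19 and 0.688 CPM), 6.09-fold higher in the DR-labelled library (3.99 to 9.70). MAGED4 and MAGED4B, near-identical copies, had 19 and 0 reads and 20 and 1 reads. Neither copy was called, but their sum was (39 against 1 read, log2 difference 1.18).

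The GAGE rows differed from each other far more than their sum differed between the libraries. GAGE12G had 1407 and 995 reads (25.3 and 28.5 CPM), 1.13-fold lower in the DR-labelled library (1.04 to 1.22). GAGE12B had 487 and 475 reads (8.77 and 13.6 CPM), GAGE2A 74 and 293 reads (1.33 and 8.40 CPM), and GAGE13 2 and 124 reads (0.0360 and 3.56 CPM). GAGE2A, GAGE13 and GAGE1 (70 and 162 reads) were called lower. Yet 100% of the 31-base stretches of GAGE12B and GAGE12G and 97.0% of those of GAGE13 occur in other members. For GAGE1 it was 13.0% of the 3134 stretches of its GENCODE transcripts, but its deposited gene length is 516 bases. Of the stretches of GAGE12B, 91.7% occur in GAGE1, so the GAGE1 row is not free of the uncertainty of copies. The windows before the starts of GAGE1, GAGE2A, GAGE12B, GAGE12D, GAGE12J and GAGE13 were 100% alike to that of GAGE12G at the best shift. The sum of the 7 rows was 2040 and 2072 reads (36.7 and 59.4 CPM), 1.62-fold lower in the DR-labelled library (1.52 to 1.72), which was not called.

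PAGE5 had 55 and 980 reads (0.990 and 28.1 CPM), 28.4-fold lower in the DR-labelled library (21.6 to 38.0), and shares 11.6% of its 31-base stretches with other members. PAGE1 had 75 and 10 reads (1.35 and 0.287 CPM), 4.71-fold higher (2.42 to 10.2). The family sum followed PAGE5, with a log2 difference of -3.22, and without PAGE5 it was 1.23. These values show genes of 1 family on opposite sides of 0.

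The remaining families were low or similar in both libraries. BAGE2 and BAGE5, which lie outside the X chromosome, summed to 8.62 and 12.8 CPM, 1.48-fold lower in the DR-labelled library (1.30 to 1.69). XAGE1B and XAGE1E had identical values of 66 and 38 reads (1.19 and 1.09 CPM). All 31-base stretches of XAGE1B occur in XAGE1E, so the division of reads between these rows is uncertain. The SSX sums were 53 and 53 reads (0.954 and 1.52 CPM), 1.59-fold lower in the DR-labelled library (1.07 to 2.38). Within them SSX1 had 9 and 36 reads and was called lower (log2 difference -1.21), while SSX4B had 33 and 13 reads. The SPANX rows held 6 and 1 reads in all and the CT45 rows 4 and 11 reads, at which depth no difference could be given with any precision.

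**Figure D4:**
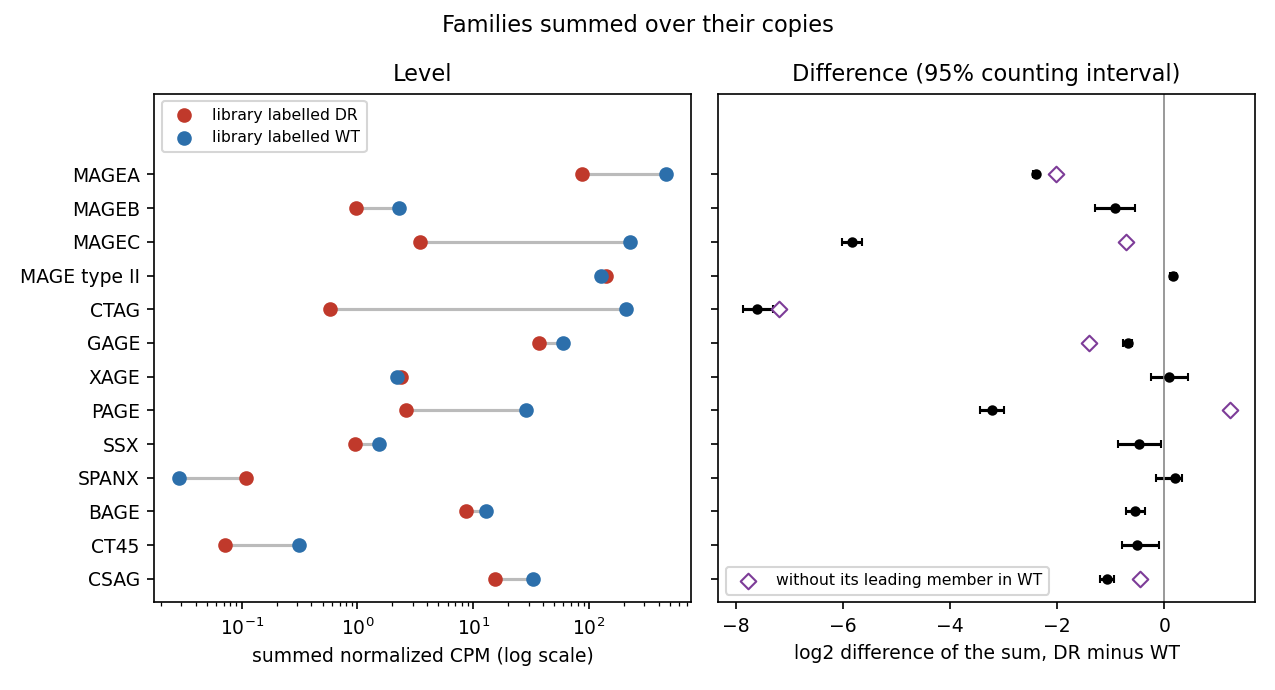
The left panel gives the summed CPM of the 13 families with counts on a log axis, and the right panel the log2 difference of each sum with its 95% interval of read counting. Diamonds give the sum without the member that has most reads in the WT-labelled library. The CTAG sum lies at -7.61, and the PAGE sum turns from -3.22 to 1.23 without PAGE5.

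Other genes give the setting of the members. Of 50 further cancer-testis genes outside the families, 29 had at least 10 reads, of which 3 were called lower and 3 higher, with a median log2 difference of -0.25. PASD1, on the X chromosome, had 5 and 359 reads (log2 difference -4.19). It was the nearest gene before MAGEA4 that had at least 10 reads and is not a member. SPA17, a sperm surface protein, had 0.810 and 5.71 CPM, and PBK, a mitotic kinase, 34.1 and 85.6 CPM. TEX15, which acts in meiosis and in silencing transposons of germ cells, was 7.54-fold higher in the DR-labelled library (13.2 and 1.75 CPM; 5.80 to 9.96), and TEX14 (4.27 and 1.52 CPM) and KDM5B (16.1 and 5.82 CPM), a histone demethylase, were also called higher. The most abundant of the list, ACTL8 and CEP55, had 88.1 and 110 CPM and 47.5 and 91.1 CPM and were not called. PRAME, a melanoma antigen of an autosome, had 946 and 785 reads and a log2 difference of -0.39. Of the germ cell genes, 4 had at least 10 reads and SYCP3, of the meiotic chromosome axis, was called higher (8.93 and 1.12 CPM), while SYCP2 of the same axis had 0.702 and 0.488 CPM.

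None of the 17 writers, erasers and readers of DNA methylation with at least 10 reads was called, and their median log2 difference was -0.09. DNMT1, the maintenance methyltransferase, had 436 and 484 CPM, and MBD1, a reader of methylated DNA, 142 and 152 CPM. The 28 repressors of germline genes were likewise not called (median -0.14). They ranged from E2F6 (21.3 and 38.8 CPM; -0.85), a repressor of germline promoters, to HDAC3 (55.4 and 33.6 CPM; 0.72), and CBX3 (276 and 388 CPM) and SUZ12 (164 and 185 CPM) had the highest sums over both libraries. Among the 11 partners of MAGE proteins, TRIM28 had 508 and 554 CPM and USP7 411 and 463 CPM. PRKAA1, the AMPK subunit whose protein MAGEA3 and MAGEA6 with TRIM28 target for degradation, had 60.7 and 69.96 CPM of RNA and was not called (log2 difference -0.20). Protein was not measured in these libraries. PRKAA2, the other catalytic subunit of AMPK, had 0.342 and 5.68 CPM and was called lower (log2 difference -2.88), and TRIM69 had 1.26 and 0.229 CPM and was called higher. Among genes with the MAGE homology domain whose names begin otherwise, NSMCE3 had 16.9 and 18.8 CPM and TRO 1.22 and 0.0861 CPM (called higher, log2 difference 1.56).

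**Figure D5:**
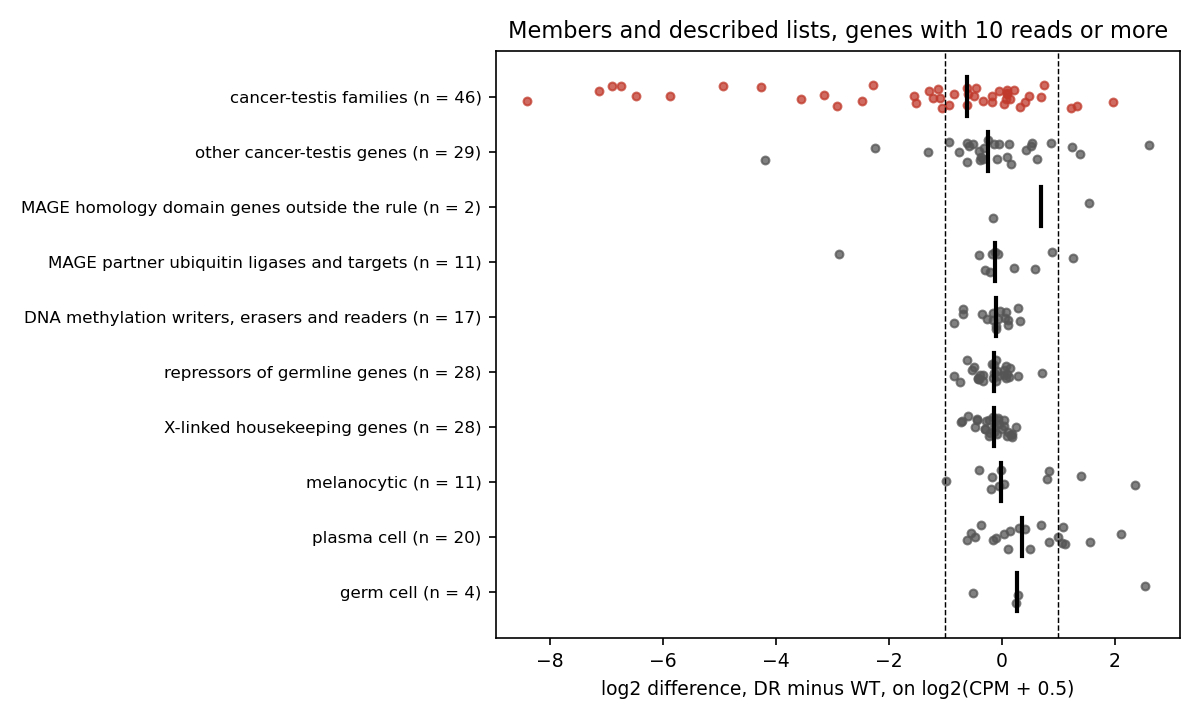
Each point is the log2 difference, DR minus WT, of 1 gene with at least 10 reads, members in red and the described lists in grey, with black bars at the medians and dashed lines at -1 and 1. Vertical scatter within a row is random and carries no value. The lowest gene of the lists is PASD1 at -4.19, and 8 members lie below that value. The families were selected on this contrast, so their low end restates that selection in part.

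Genes of the X chromosome outside the families had a median near 0, with larger shares called in both directions than over all genes. The 28 X-linked housekeeping genes, led by the ribosomal protein genes RPL10 (1815 and 1515 CPM) and RPS4X (1217 and 1070 CPM), had 0 called genes and a median of -0.13. Of all 551 X-linked genes outside the families with at least 10 reads, housekeeping genes included, 40 were called lower and 58 higher (7.26% and 10.53%; median -0.10). Over all 16210 genes these shares were 4.16% and 7.48%. For each member with at least 10 reads, the nearest genes outside the families were taken from the RefSeq gene order. Only genes with at least 10 reads were considered, so genes with fewer reads may lie between. These 38 neighbours had a median of -0.0015, with 3 called lower and 3 higher. The CTAG genes lie between IKBKG, an NF-kB regulator (44.2 and 44.1 CPM), and GAB3 (3.94 and 3.53 CPM), and neither was called. The group of MAGEA3, MAGEA6, MAGEA2 and MAGEA12 with the CSAG genes lies between GABRQ (0.522 and 0.115 CPM) and CETN2, a centriole protein (19.9 and 17.9 CPM), which were not called either. GABRA3, a GABA receptor subunit next to MAGEA10, had 0 and 258 reads (7.40 CPM in the WT-labelled library) and was called lower, as was GSPT2 beside MAGED1 (5.31 and 17.2 CPM). Next to MAGEC3, LDOC1 had 256 reads in the DR-labelled library and 0 in the WT-labelled library, opposite in direction to MAGEC1 of the same stretch. ZNF630, beside the SSX genes, had 55 and 0 reads.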

How the data were processed

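RNA was sequenced from 1 DR-labelled library and 1 WT-labelled library. Per the submitters' processing notes, reads were handled with Bowtie 0.12.2 and the genome build hg19, and the counting tool and annotation are not given in the sources used here. The authors deposited estimated counts per gene and library (expected counts, without scaling for library size), together with gene lengths, functional annotation and a log2 ratio, a p-value and a q-value of their own for the contrast, which were not used. Of 18930 genes, 663 had no count. The members and gene lists were chosen with earlier results of these data known.

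Counts were rounded to whole numbers (9108 genes, 39 of them members, had fractional counts) and scaled with the TMM method of edgeR 4.0.16 in R 4.3.3, with factors of 1.01 and 0.988. Further steps used Python 3.11.15 with NumPy 2.4.6, pandas 2.3.3, SciPy 1.17.1 and matplotlib 3.10.9. Differences were taken as log2 (CPM + 0.5), DR minus WT, for the 16210 genes whose reads in both libraries came to at least 10, and called at 1 or more in size. With 1 library per group no test of the groups could be fitted and no p-value is given. Intervals are 95% exact Clopper-Pearson intervals (from the share of a gene's reads found in either library) and, like the floor of 3 reads (0.054 and 0.0861 CPM), cover counting error only, since reads without molecular identifiers are not independent molecules. Whether the libraries came from separate cultures is not stated. Levels were compared between genes per kilobase of the deposited gene length. Shared sequence was measured as the percent of the 31-base stretches of a gene's GENCODE v29 transcripts that occur in another member (90 of 91 members matched), and members were summed as copies where a pair shared at least 50% of the stretches of the smaller of the pair, directly or through a further member. Start windows were those of RefSeq GRCh38.p14, and RefSeq's gene order, matched by gene ID, gave the neighbours among genes with at least 10 reads. The calculations were checked on simulated counts.

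Members with at least 10 CPM in either library are described in full, copies together, and the others by counts and family sums, with 1 or 2 members of each MAGE family. Of the lists, the called genes and the 2 with most CPM summed over both libraries are named. MAGEB18, PRAME, PRKAA1, E2F6, HDAC3, SOX10 and TYRP1 were chosen after their values were seen, as were the neighbours and the other members named below 10 CPM. Alternatives were DESeq2 1.42.0 size factors, library totals, pseudocounts of 0.1 and 5 CPM, no filter, at least 50 reads, a log2 threshold of 2, counts without rounding, summed copies, order by CPM, and, after seeing the data, family sums without their leading member.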

Additional observations from a re-analysis of the deposited data

How the results depend on the processing

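The 20 members called lower and 3 called higher stayed at these counts with DESeq2 size factors, library totals, no filter and counts without rounding, and at 18 and 3 with at least 50 reads. With a pseudocount of 5 CPM they were 12 and 0, and with 0.1 CPM 21 and 6. With a log2 threshold of 2 they were 13 and 0. Over all 16210 genes, 2.1% were called lower and 2.6% higher with a pseudocount of 5 CPM. These shares were 5.6% and 10.6% with 0.1 CPM, and 1.2% and 2.1% with a log2 threshold of 2. The shares are given beside the counts only, since the families were picked from this contrast. With near-identical copies summed, 12 of 34 units were called lower and 4 higher. Log2 differences of family sums moved past their counting intervals with a pseudocount of 5 CPM for MAGEA (-2.34), MAGEB (-0.29), MAGEC (-4.76), CTAG (-5.26), PAGE (-2.14), CT45 (-0.068) and CSAG (-0.89), and with 0.1 CPM for CTAG (-8.27), SPANX (0.69) and CT45 (-1.27). Without their leading member in the WT-labelled library, sums were -2.03 for MAGEA, -0.71 for MAGEC, -7.20 for CTAG, -1.40 for GAGE and -0.46 for CSAG, and PAGE reversed to 1.23. The pseudocount acts on low levels by construction.

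Of the 46 single members, 43 stayed within their counting intervals with DESeq2 size factors and 44 with library totals, while 29 moved with a pseudocount of 5 CPM and 21 with 0.1 CPM. No member that was called changed its direction, but these alternatives could not have shown such a change. A pseudocount cannot change the sign of a difference at given library sizes, and the scalings moved values by far less than 1. Of 16 ranks compared, 13 differed between CPM and CPM per kb. No paired analysis was possible because each group holds 1 library. For the same reason no replicate could be left out and edgeR's quasi-likelihood test was not run. Depth limits statements on members with few reads, and without replicates no difference can be set against the spread between cultures.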
